A study of Mus musculus with 138 samples.

Results

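In the first of the study's 3 pools of TrimAway embryos, the antibody against SMARCA5 was set against a control IgG. The libraries were those whose titles name TrimAway replicate 1 with either antibody, and that held at least 100000 counts. This kept 17 of 18 anti-SMARCA5 libraries and 10 of 11 IgG libraries, 27 of the 138 libraries of the series. Per the labels, both groups were wild-type mouse embryos injected as zygotes and collected at the 2-cell stage a day or more later, and polyadenylated RNA was read in 1 library per plate well. Neither group carried an engineered allele. Uninjected embryos of the same pool, of which 10 of 11 libraries were kept, give the background level of each gene.

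SMARCA5, also called SNF2H, is the ATPase of the ISWI chromatin remodelling complexes, which slide and space nucleosomes. Maternal SMARCA5 protein is present in the egg, and the mouse genome becomes broadly active at the 2-cell stage while maternal transcripts are cleared. In TrimAway, an injected antibody binds its target protein, and TRIM21, a ubiquitin ligase that recognises antibodies, sends the complex to the proteasome, so the protein is removed and its RNA is not the direct target. The series addresses whether SMARCA5 is needed for the main wave of genome activation.

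The design text calls the pools technical replicates, and each group here is 1 pool of injected embryos. The labels do not say whether a well holds 1 embryo, 1 of its cells or several embryos. The p-values therefore measure the spread between libraries of 1 injection group, which may in part be spread within an embryo. The wells of both groups lay in separate plate columns, so antibody and plate position cannot be told apart. Protein was not measured in these files, so no value here shows how much SMARCA5 was lost. Depth was 236128 to 3170817 counts in the IgG libraries (median 1708008) and 989287 to 2321338 in the anti-SMARCA5 libraries (median 1464045). Levels are CPM, counts scaled to a common library size, corrected by TMM, edgeR's factor for library composition. A gene is called changed at an adjusted p-value under 0.05 in edgeR's quasi-likelihood test with Benjamini-Hochberg adjustment over all tested genes. Fold changes are log2 values of anti-SMARCA5 over IgG with their standard error (SE).

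Trim21, the degradation ligase of the method, separated both groups completely. It was at 0 counts in all 10 IgG libraries, which held 16619784 counts together. In the 17 anti-SMARCA5 libraries it was 316 CPM at the lowest, 1456 at the median and 8118 at the highest. Every anti-SMARCA5 library was above every IgG library. The mean of 2182 CPM before TMM scaling was at least 12091-fold higher than the limit of 0.180 set by 3 counts over the whole IgG group (edgeR adjusted p = 3.33e-08). The share of Trim21 ran from 0.0266% of counts in well H07 (95% Wilson interval 0.0246% to 0.0289%) to 0.613% in well G06 (0.601% to 0.624%), a 23-fold spread within the group. These intervals cover counting error only. Uninjected libraries held between 0 and 3 Trim21 counts. The groups thus differed in Trim21 RNA as well as in the antibody, and the effects of both cannot be told apart.

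Smarca5 RNA did not pass the test. It was 50.7 CPM at the lowest, 418 at the median and 1105 at the highest in anti-SMARCA5 libraries, with a mean of 505 ± 284 (SD, n = 17). In IgG libraries it was 347 CPM at the lowest, 658 at the median and 1434 at the highest, with a mean of 741 ± 381 (SD, n = 10). The groups overlapped, although 13 of 17 anti-SMARCA5 libraries lay below the IgG median and 7 below its lowest library. The log2 fold change was -0.53 (SE 0.31, edgeR adjusted p = 0.296). The uninjected median was 533 CPM. Smarca1, the other ISWI ATPase, was too low to be tested, and its median was 0 CPM in both groups. Of 14 listed subunits of ISWI complexes, 13 were tested, none was called by edgeR or DESeq2 or reached an unadjusted p under 0.05 in either, and their median log2 fold change was -0.19 beside 0.08 over all tested genes.

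**Figure D1:**
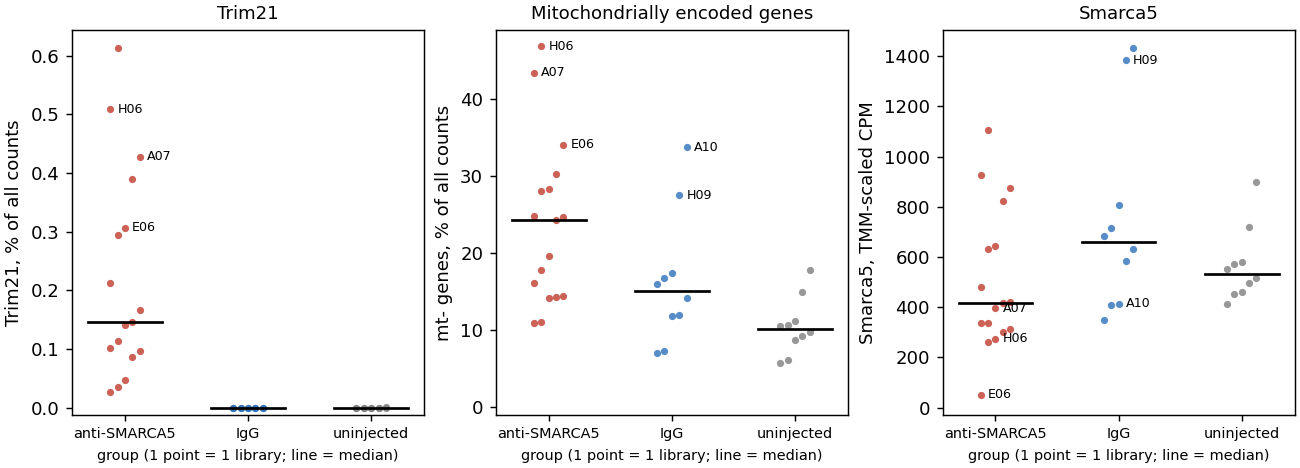
Trim21 as a share of all counts, mitochondrially encoded genes as a share of all counts, and Smarca5 in TMM-scaled CPM, by group in pool 1. Each point is 1 library and each black line a group median. All 17 anti-SMARCA5 libraries lie above the IgG libraries for Trim21, and both groups overlap for the mt- genes and for Smarca5.

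RNA from the 13 mitochondrially encoded genes took a wide range of shares. It was 7.04% of counts at the lowest, 15.1% at the median and 33.8% at the highest in IgG libraries. It was 11%, 24.4% and 46.9% in the same order in anti-SMARCA5 libraries. The means were 23.8% ± 10.6 (SD, n = 17) and 16.4% ± 8.44 (SD, n = 10), a difference of 7.36 percentage points (two-sided permutation test, 100000 resamples, p = 0.0676, 0.106 adjusted over 2 library measures). Without the IgG libraries of wells A10 and H09, whose shares were 33.8% and 27.6%, the difference was 10.9 percentage points, a value given with no test because these are the highest shares of the IgG group. The uninjected mean was 10.5% ± 3.66 (SD, n = 10). The number of genes detected after thinning each library to 100000 counts was 9412 ± 608 (SD, n = 17) with anti-SMARCA5 and 9011 ± 564 (SD, n = 10) with IgG (permutation test p = 0.106, adjusted 0.106). With Trim21 and the mt- genes removed before thinning it was 10101 ± 588 and 9408 ± 685 (SD, permutation test p = 0.0117). In that count, 15 of 17 anti-SMARCA5 libraries lay above the IgG median. Counting only genes with 2 or more counts gave 6982 ± 728 and 6894 ± 469 (SD), a difference of 87.7 genes (permutation test p = 0.730). The mt- share moves with the gene results below, and its part in them was not tested beyond the fit that includes it as a term.

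Of 10507 genes tested, 90 were called, which is 0.857%. Of these 54 (0.514%) were higher and 36 (0.343%) lower in anti-SMARCA5 libraries, and 53 and 35 of them by at least 2-fold. An unadjusted p under 0.05 was reached by 2398 genes, and 537 had an adjusted p from 0.05 to under 0.1. Apart from Trim21 the smallest adjusted p was 0.0156, so most calls sat close to the threshold. With Trim21 and the mt- genes removed before scaling, 94 genes were called, 50 higher and 44 lower, and 84 of the 90 were among them. With the mt- share of each library as a term, 7 genes were called. DESeq2 on the same libraries and genes, with its default replacement of outlier counts, called 877, or 8.51% of the genes to which it gave an adjusted p.

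The genes that rose included an epithelial gene, a neural transcription factor and metabolite carriers. Krt8, a keratin of simple epithelia, ranged from 0 to 91.5 CPM with a median of 9.90 in anti-SMARCA5 libraries and from 0 to 11 CPM with a median of 0.296 in IgG libraries. Its log2 fold change was 3.45 (SE 0.85, edgeR adjusted p = 0.0421), and 8 of 17 libraries lay above the highest IgG library. Pax6, a transcription factor of eye and brain development, was 9.67 CPM at the lowest, 46.5 at the median and 273 at the highest with anti-SMARCA5, against 0, 7.19 and 45.5 CPM with IgG. All 17 libraries lay above the IgG median of Pax6, whose log2 fold change was 2.98 (SE 0.64, edgeR adjusted p = 0.0378). The highest IgG value for Pax6 came from well A10, and Pax6 lies over genes on the other strand, among them Pax6os1, which cannot be told apart where strand is not stated.

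Trap1a, an X-linked tumour rejection antigen gene that early embryos and placenta also express, was 1.04 CPM at the lowest, 46.6 at the median and 134 at the highest in anti-SMARCA5 libraries. It was 0.528, 10.6 and 12.4 CPM in IgG libraries. In 16 of 17 anti-SMARCA5 libraries Trap1a was above the highest IgG library, and the log2 fold change was 2.66 (SE 0.48, edgeR adjusted p = 0.0156). Its uninjected median of 19.3 CPM was also above the IgG median. Slc16a13, a member of the monocarboxylate transporter family, had medians of 43.7 and 9.57 CPM and rose by 2.16 (SE 0.42, edgeR adjusted p = 0.0237), with 14 of 17 libraries above the highest IgG library. Ceacam20, a cell adhesion gene, had medians of 54.1 and 8.88 CPM and rose by 2.67 on the log2 scale (SE 0.53, edgeR adjusted p = 0.0237), and 14 of 17 again lay above the highest IgG value. For these 3 genes between 1 and 3 anti-SMARCA5 libraries lay at or below the highest IgG library, so the groups overlapped.

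Other rises among the named genes were Rassf4 (3.25), Slc25a1 (2.79), Cyb5 (2.51), Ttf2 (2.45), Mex3b (2.24) and Celsr1 (2.20), all as log2 fold changes. Slc25a1 encodes the mitochondrial citrate carrier, Cyb5 a cytochrome b5 and Celsr1 a cadherin of planar cell polarity. From the lists of pathways, Smarca2, the alternative ATPase of SWI/SNF remodellers, rose by 1.57 (SE 0.34, edgeR adjusted p = 0.0378), with a median of 164 CPM against 66.8. Cyclin D1 (Ccnd1) rose by 1.86, the chemokine Cxcl10 by 2.05 and the growth factor receptor Fgfr2 by 1.47 on the log2 scale. The interval of Fgfr2 in the count table overlaps 37 other genes, so its value is uncertain. Trap1a, Rassf4, Cyb5, Smarca2, Ccnd1 and Cxcl10 also overlap genes on the other strand, with the same limit as Pax6. Over the 15 named rises other than Trim21, the uninjected median lay above the IgG median for 11 and below the anti-SMARCA5 median for all 15. As these genes were named because they were higher with anti-SMARCA5 than with IgG, these counts are descriptions of the chosen genes only.

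Among the genes that fell, Mat2a had the highest level. Mat2a makes S-adenosylmethionine, the methyl donor of the cell. In anti-SMARCA5 libraries it was 20.7 CPM at the lowest, 468 at the median and 634 at the highest, and in IgG libraries 543, 1080 and 1824 CPM. All 17 anti-SMARCA5 libraries lay below the IgG median of Mat2a and 11 below the lowest IgG library. The log2 fold change was -1.37 (SE 0.30, edgeR adjusted p = 0.0378), and the uninjected median was 936 CPM.

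Dctn4, a subunit of the dynactin complex of dynein transport, was 3.81 CPM at the lowest, 11.8 at the median and 28.1 at the highest in anti-SMARCA5 libraries. It was 22.2, 40.4 and 60.2 CPM in IgG libraries, so 15 of 17 anti-SMARCA5 libraries lay below all of them. Its log2 fold change was -1.58 (SE 0.31, edgeR adjusted p = 0.0237). Pramel4, of the Prame-like family of early embryonic genes, had medians of 2.77 and 34.7 CPM and fell by 2.85 on the log2 scale (SE 0.64, edgeR adjusted p = 0.0384), with 15 of 17 libraries below the lowest IgG library. The uninjected median of Pramel4 was 12.4 CPM, between both injected groups. Pramel4, Mbd3l2 and Prps1l3 belong to families with close copies, and how the counting treated reads that match several places is not stated. Mbd3l2, related to a methyl-CpG binding protein, had medians of 137 and 525 CPM and a log2 fold change of -1.68. Prps1l3, related to a nucleotide synthesis enzyme, had medians of 74.9 and 247 CPM and a log2 fold change of -1.55.

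Arih2 and Trim71 are 2 named falls with a role in ubiquitin transfer, put side by side after their values were seen. The share of such genes among all tested genes was not counted, and a link to TRIM21 was not tested. Arih2, a ubiquitin ligase, had medians of 72.4 CPM with anti-SMARCA5 and 182 CPM with IgG, with all 17 libraries below the IgG median, and fell by 1.40 on the log2 scale (SE 0.32, edgeR adjusted p = 0.0384). Trim71, an RNA-binding ligase of the same protein family as TRIM21, had medians of 18.9 and 51.2 CPM and fell by 1.42 (SE 0.36, edgeR adjusted p = 0.0450). Of 47 listed genes of the TRIM21 route and the proteasome, edgeR called Trim21 higher and none lower. DESeq2 called 1 of them lower, beside 3.01% of the genes to which it gave an adjusted p. At an unadjusted p under 0.05, 6 were lower, beside 10.1% of all genes.

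Zkscan1, a zinc finger gene, was 14.2 CPM at the lowest, 43.0 at the median and 67.0 at the highest with anti-SMARCA5, against 29.5, 123 and 230 CPM with IgG. Zkscan1 fell by 1.47 on the log2 scale (SE 0.28, edgeR adjusted p = 0.0237), with all 17 libraries below the IgG median. Smarcc1, a core subunit of SWI/SNF remodellers, had a log2 fold change of -1.05. It was -1.43 for Tada2a of histone acetyltransferase complexes, -1.12 for Nfyc, a subunit of the CCAAT-binding factor NF-Y, and -1.16 for the endoderm factor Gata4. Gpr3, the receptor that holds oocytes in meiotic arrest, was the 1 maternal transcript called, at -1.11. Dkc1, which modifies ribosomal RNA, was the 1 nucleolar gene called, at -0.90. Further falls were Tacr3 (-3.02), Stmn3 (-2.28), Fam45a (-1.80), B4galnt2 (-1.78) and Magt1 (-1.34). Arih2, B4galnt2, Dkc1 and Gpr3 overlap a gene on the other strand, with the same limit as Pax6. Prps1l3 overlaps Mipol1 on its own strand. For all 19 named falls the uninjected median lay below the IgG median and above that of anti-SMARCA5. In 17 of them all 17 anti-SMARCA5 libraries lay below the IgG median. These genes were named because they were lower with anti-SMARCA5 than with IgG, and the counts were not made over all genes. They are therefore descriptions of the chosen genes only.

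**Figure D2:**
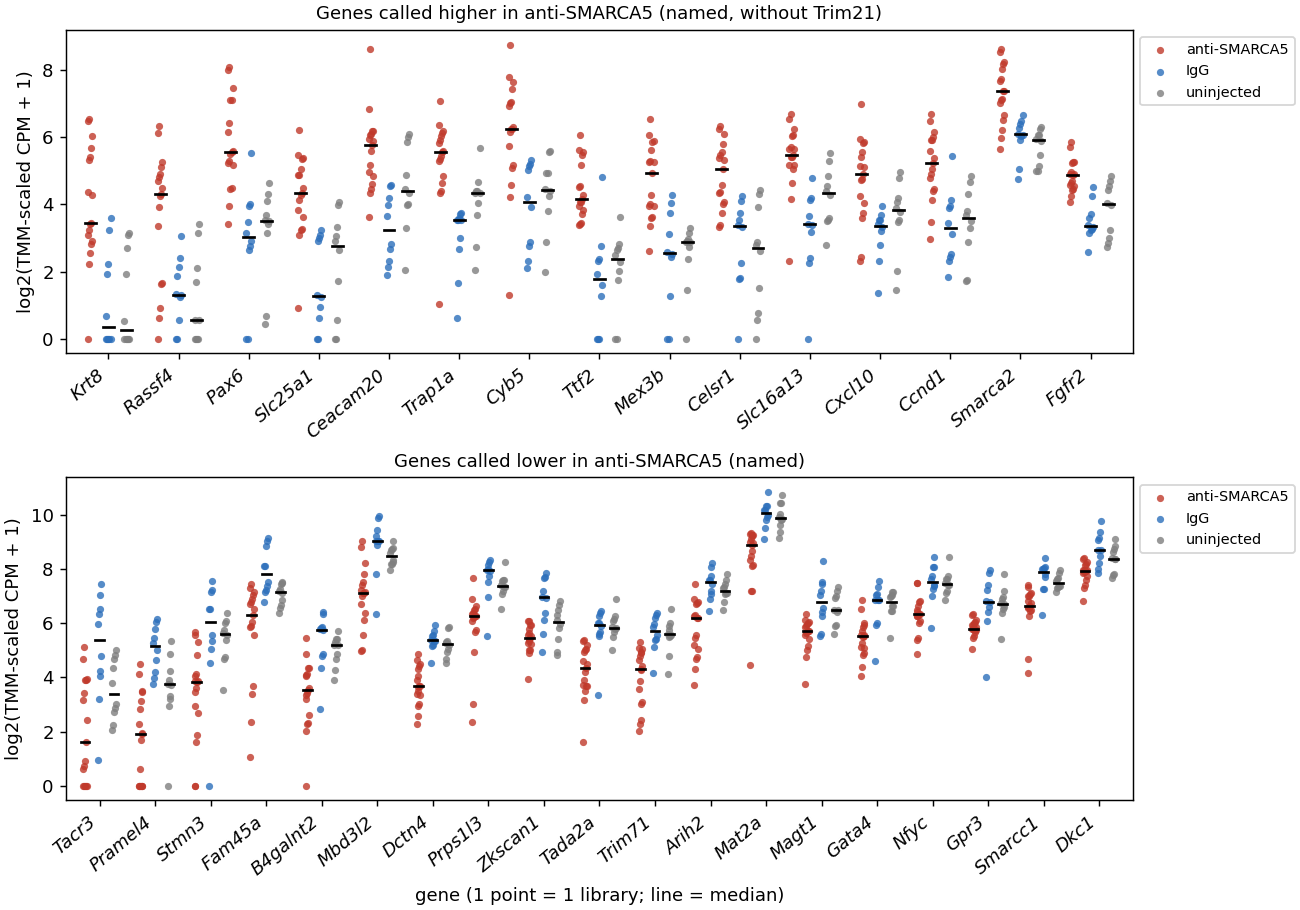
log2(TMM-scaled CPM + 1) of the 15 named genes called higher (top, without Trim21) and the 19 called lower (bottom) in pool 1, with 1 point per library and a line at each group median. Uninjected medians lie between the medians of both injected groups for all 19 lower genes. The genes were chosen for their difference between the injected groups, so these positions are descriptions only. Single libraries of both injected groups overlap for every gene drawn.

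The promoters of 3 genes named above, from RefSeq on GRCm38.p6, show how different the start regions of genes with a changed level were. Each runs from 250 bases before to 50 bases after the start, and capitals mark matches to TATAAA or CCAAT on either strand. Trap1a lies at chrX:139333433-139333732 on the plus strand, Krt8 at chr15:102004293-102004592 and Mat2a at chr6:72439507-72439806, both on the minus strand.
Trap1a: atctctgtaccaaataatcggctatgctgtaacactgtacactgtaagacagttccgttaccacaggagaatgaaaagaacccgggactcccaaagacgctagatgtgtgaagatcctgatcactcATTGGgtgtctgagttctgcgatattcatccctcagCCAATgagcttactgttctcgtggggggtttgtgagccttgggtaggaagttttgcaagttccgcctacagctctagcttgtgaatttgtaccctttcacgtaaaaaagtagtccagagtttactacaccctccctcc
Krt8: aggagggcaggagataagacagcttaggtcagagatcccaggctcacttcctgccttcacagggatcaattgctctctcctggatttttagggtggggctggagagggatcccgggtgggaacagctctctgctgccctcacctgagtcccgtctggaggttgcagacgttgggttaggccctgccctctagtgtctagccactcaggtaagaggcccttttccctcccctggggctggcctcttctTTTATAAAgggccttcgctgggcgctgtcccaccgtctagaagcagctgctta
Mat2a: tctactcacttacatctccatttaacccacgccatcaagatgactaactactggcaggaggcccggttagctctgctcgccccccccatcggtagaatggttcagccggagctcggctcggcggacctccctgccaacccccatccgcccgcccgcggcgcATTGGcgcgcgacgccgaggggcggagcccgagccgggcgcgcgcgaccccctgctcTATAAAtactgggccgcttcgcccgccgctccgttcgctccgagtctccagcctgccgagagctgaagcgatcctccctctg
Krt8 and Mat2a, which changed in opposite directions, both hold TATAAA. It is in 13.6% of all 32851 promoters of the table and in 6.44% of the 7666 found for tested genes. Trap1a holds CCAAT on each strand and Mat2a holds it once, beside 37.4% of all promoters and 40.5% of those of tested genes. GC content was 46.7% for Trap1a, 58.0% for Krt8 and 67.0% for Mat2a. A promoter within 1000 bases of the gene start was found for 38 of 54 higher and 24 of 36 lower genes, 70.4% and 66.7%, so a comparison of promoter composition over the called genes is void. A match is a description of letters and not a measured site.

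Lists of genes with a shared function held few calls, while several had medians away from zero. Of 76 tested genes of the nucleolus and ribosomal RNA processing, which make ribosomes, Dkc1 was called, 35 were lower at an unadjusted p under 0.05 and none was higher, beside 10.1% lower and 12.7% higher over all genes. The median log2 fold change was -0.62 beside 0.08 over all tested genes, and 75 of 76 were below zero. The list level of a library is the average log2(CPM + 1) of its genes, and it ran from 4.11 through a median of 6.26 to 7.30 with anti-SMARCA5, and from 5.21 through 7.10 to 7.44 with IgG. Of the 17 anti-SMARCA5 libraries 16 lay below the IgG median. Wells A07, H06 and E06 lay below the lowest IgG library, and these 3 also held the highest mt- shares of the comparison, 43.5%, 46.9% and 34.1%. With the mt- share as a term the nucleolar median was -0.31.

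Translation factors had 0 of 46 called, 17 lower and none higher at an unadjusted p under 0.05, and a median of -0.56. For this list and those that follow here, the shares over all genes at that p were 10.1% lower and 12.7% higher. Of 62 spliceosome genes none was called, 12 were lower and 1 higher at an unadjusted p, and the median was -0.38. Of 60 genes of RNA polymerase II and the general factors none was called, 10 were lower and 1 higher at an unadjusted p, and the median was -0.30. With the mt- share as a term these medians were -0.30 for translation, -0.18 for the spliceosome and -0.16 for the polymerase list. By DESeq2, 10 of the 76 nucleolar genes, 4 translation factors, 1 spliceosome gene and 1 gene of the polymerase list were called lower and none higher, beside 3.01% lower over the 10303 genes with an adjusted p. The level of the translation list was below the IgG median in 16 of 17 anti-SMARCA5 libraries.

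Genes of the 2-cell stage, which mark the opening of the genome, were spread widely among the libraries of both injected groups. None of 44 tested members was called, 7 were lower and none higher at an unadjusted p under 0.05, beside 10.1% and 12.7% of all genes, and the median log2 fold change was -0.14. DESeq2 called 2 members higher and 3 lower, beside 5.50% and 3.01% of the genes to which it gave an adjusted p. Its median for the list was 0.14, so the sign of the median depended on the fit. With DESeq2 size factors in edgeR the median was -0.15. The part of DESeq2's default replacement of outlier counts was not tested. The list level was 2.12 at the lowest, 5.71 at the median and 6.89 at the highest with anti-SMARCA5, and 4.18, 4.97 and 7.16 with IgG. The uninjected libraries lay between 3.89 and 4.77. Zscan4d, a gene of the transient 2-cell program, was 0 CPM at the lowest, 202 at the median and 586 at the highest with anti-SMARCA5, and 9.70, 55.0 and 1174 CPM with IgG. Its uninjected median was 14.8 CPM.

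In each group a pair of libraries stood apart on the 2-cell list, low with anti-SMARCA5 and high with IgG. The high end was shared, as anti-SMARCA5 wells H06 and G06 stood at 6.89 and 6.69. In the anti-SMARCA5 wells A07 and E06 the list stood at 2.12 and 2.67, and the next library of the group at 4.53. Zscan4d was 0 CPM in A07 and 15.5 in E06, and the oocyte-to-embryo homeobox gene Obox3 was 0 and 2.07 CPM there beside a group median of 42.5. These wells carry the 2-cell label while several of its defining genes are near 0 in them. Their maternal transcript levels, 5.97 and 7.15, lay above the IgG median of 5.87. That of A07 was near its own group's median of 5.95 and within the IgG range, which reached 6.05. That of E06 was the highest of all 27 libraries. Without both, 133 genes were called. The 2-cell median was then 0.04, a move that leaving out the lowest libraries of the list fixes.

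In the IgG wells A10 and H09 the 2-cell list stood at 7.16 and 6.78, and the other 8 IgG libraries lay at or below 5.42. Both also had the lowest nucleolar levels of the IgG group, 5.21 and 6.29, and the highest mt- shares. Without these 2 libraries, an alternative chosen after their content was seen, 1177 of 10963 genes were called (10.7%), 768 higher and 409 lower. Removing the IgG libraries that are highest for the 2-cell list and lowest for the nucleolar list fixes the direction in which both lists move, so their values without them are descriptions only. The median of the 2-cell list was 0.82, the log2 fold change of Zscan4d 2.32, and the nucleolar median was -0.79. In that fit 14 of 44 2-cell genes stood past the threshold as higher, beside 7.01% of all genes, and 14 of 76 nucleolar genes as lower, beside 3.73%.

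**Figure D3:**
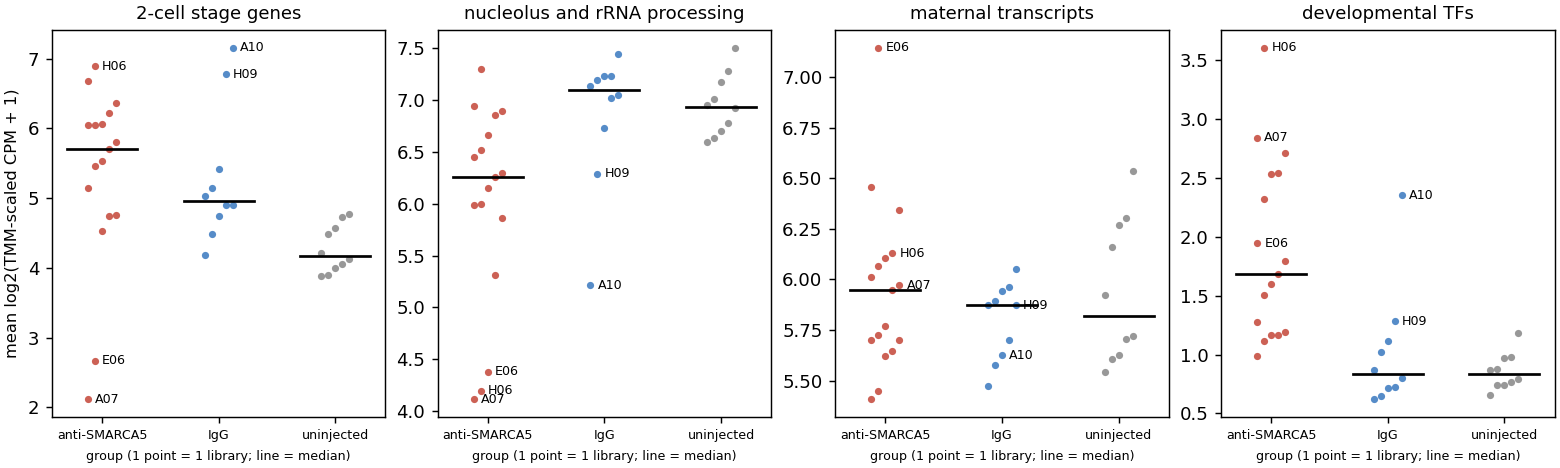
Average log2(TMM-scaled CPM + 1) of the genes of 4 lists for each library of pool 1, with a line at each group median and 5 wells marked. Wells A07 and E06 of anti-SMARCA5 lie lowest for the 2-cell stage genes, and wells A10 and H09 of IgG lie highest of their group for them and lowest for the nucleolar genes.

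Developmental transcription factors, which direct later lineages and are nearly silent in cleaving embryos, stood higher in all anti-SMARCA5 libraries than the IgG median. The list level over 114 genes was 0.986 at the lowest, 1.69 at the median and 3.61 at the highest with anti-SMARCA5, and 0.621, 0.833 and 2.35 with IgG. In all, 5 anti-SMARCA5 libraries were above the highest IgG library, which was well A10. Of 28 members tested, Pax6 was called higher and Gata4 lower, 10 were higher and 2 lower at an unadjusted p under 0.05, beside 12.7% and 10.1% of all genes, and the median log2 fold change was 1.25. With the mt- share as a term the median was 0.58. Signalling ligands and receptors had 1 of 26 called, Fgfr2, beside 0.514% of all genes called higher. Their median was 1.03 with 25 of 26 above zero, and their level was above the IgG median in 17 of 17 libraries. Only 28 of 114 and 26 of 52 listed genes passed the filter on low counts. A scarce gene can pass it through the anti-SMARCA5 group alone. That can push the medians and the counts of rises upward, so for both lists they are descriptions only. In bulk RNA, a higher relative level of such scarce RNA and less of the abundant RNA cannot be told apart.

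Markers of other cells that can adhere to an embryo were low but not equal between groups. Of 22 cumulus and granulosa markers, Hsd3b1, Dcn and Lum were at 0 in all pool 1 libraries, and only 2 passed the filter on low counts. The list level was 0.485 to 2.09 with anti-SMARCA5 (median 0.794), 0.209 to 1.65 with IgG (median 0.462) and 0.442 to 0.773 in uninjected embryos. All 17 anti-SMARCA5 libraries lay above the IgG median for these markers. The highest values were again those of wells H06, A07 and E06 and of IgG well A10. Of 8 blood markers Ptprc and Tyrobp were at 0 throughout, and of 7 sperm markers Smcp was. The blood list level was 1.13 to 4.13 with anti-SMARCA5 (median 2.05) and 0.111 to 3.72 with IgG (median 1.42), and 12 of 17 anti-SMARCA5 libraries lay above the IgG median. Cd74 had medians of 29.995 and 10.3 CPM, and Lyz2 reached 137 CPM with anti-SMARCA5 and 51.6 CPM with IgG. The part of these markers in the rises was not tested.

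Maternal transcripts, which remain when clearance is slow, had 0 of 61 called higher and Gpr3 called lower. At an unadjusted p under 0.05, 11 were higher and 5 lower, beside 12.7% and 10.1% of all genes, with a median of 0.33. Of 34 listed antiviral and interferon genes, which can respond to injected RNA, 15 were tested. Among these Cxcl10 was called higher and none lower. Their median was 0.42, with the same limit of the filter as for the developmental factors. Chaperones, the integrated stress response and p53 targets had 0 of 25, 0 of 23 and 0 of 21 called by edgeR, with 9, 5 and 4 at an unadjusted p under 0.05, beside 22.8% of all genes. DESeq2 called 5.50% of the genes with an adjusted p higher and 3.01% lower. It called 1 chaperone each way, 2 stress response genes and 1 p53 target higher, and 4 maternal transcripts higher and 2 lower.

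The number of calls moved with most of the libraries left out singly, in both groups. Leaving out 1 library at a time gave between 1 and 745 called genes. Genes at an unadjusted p under 0.05 moved less, from 1882 without IgG F10 to 3065 without IgG A10. The count of called genes rose to 745 without IgG well A10, 160 without IgG H09, 338 without anti-SMARCA5 C06 and 267 without F07. It was 15 without IgG A11, 12 without B10, 8 without C10, 8 without E10, 1 without F10, 33 without G09 and 5 without G10. On the anti-SMARCA5 side it was 7 without A08, 6 without B06, 46 without B07, 52 without D06, 6 without G06, 34 without G07 and 43 without H06. Trim21 remained past the threshold wherever it was tested. Most other named calls were not stable. Of the 34, 28 lost their call in 10 or more of 41 alternatives, with a median of 13.5 over the 34. Ttf2 lost it in 24, Gata4 and Smarcc1 in 22, Dkc1 and Trim71 in 21, Krt8 in 18, Mat2a in 12 and Pax6 in 10. Trap1a lost its call in 1, Dctn4 and Slc16a13 in 2 and Zkscan1 in 3, and no named gene changed sign in any alternative.

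**Figure D4:**
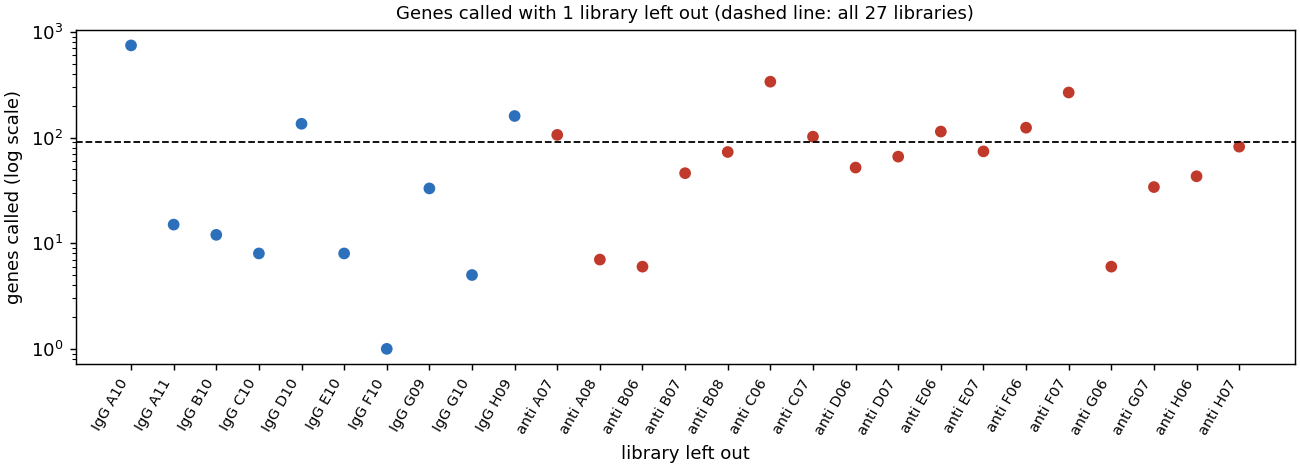
Number of genes called (log scale) when 1 library is left out, for the 10 IgG libraries (blue) and the 17 anti-SMARCA5 libraries (red). The dashed line marks the 90 genes called with all libraries, and the counts run from 1 without IgG well F10 to 745 without IgG well A10.

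Trim21 RNA differed between the anti-SMARCA5 libraries, so the test was repeated within them as a slope on log2(Trim21 CPM + 1). None of 6125 genes was called by edgeR, 1013 had an unadjusted p under 0.05, and no other tool was run. Cyclin D1 (Ccnd1) came closest, with 0.76 log2 units per doubling of Trim21 (SE 0.14, edgeR adjusted p = 0.0512). Pax6 had a slope of 0.73 (SE 0.16, edgeR adjusted p = 0.0703) and Mbd3l2 one of -0.64 (SE 0.16, edgeR adjusted p = 0.0892). Ccnd1, Pax6 and Mbd3l2 had the smallest adjusted p of the named genes tested for a slope, and none of them passed the test. Smarca5 had a slope of -0.31 (edgeR adjusted p = 0.247). All 13 mt- genes had slopes above zero with a median of 0.37. Of these 11 had an unadjusted p under 0.05, beside 11.6% of all genes with a slope above zero. Without wells A07 and E06 it was 5 of the mt- genes, and 6 with total-count scaling. With the mt- share of each library as a term no gene was called for the slope, and 553 genes had an unadjusted p under 0.05. Without A07 and E06 there were 64 calls, and leaving out single libraries gave 0 to 40, with 40 without G06, 12 without C07 and 10 without E06.

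Pool 2 also holds both antibodies, but its 6 IgG libraries had 8884 to 34050 counts, under the depth minimum, so it gave no comparison. Pool 3 had 7 anti-SMARCA5 and 10 IgG libraries of at least 100000 counts, and its IgG libraries held Trim21, at 0% to 0.151% of counts with a median of 0.0182%. Of 9547 genes tested there, 1574 were called (16.5%), of which 663 were higher (6.94%) and 911 lower (9.54%). Of the genes called in pool 1, 73 were tested in pool 3, 68 had the same sign and 22 were called, 30.1% of the former and 1.40% of the pool 3 calls. All 22 had the same sign. Of the genes lower in pool 1, 30 of 31 were below zero in pool 3 with a median of -1.47, beside 52.4% of all genes. Of those higher in pool 1, without Trim21, 37 of 41 were above zero with a median of 0.76, beside 47.6% of all genes. Mat2a had a log2 fold change of -3.50 in pool 3 (SE 0.54, edgeR adjusted p = 0.00369), and the difference between pools did not pass the test (adjusted p = 0.0715).

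**Figure D5:**
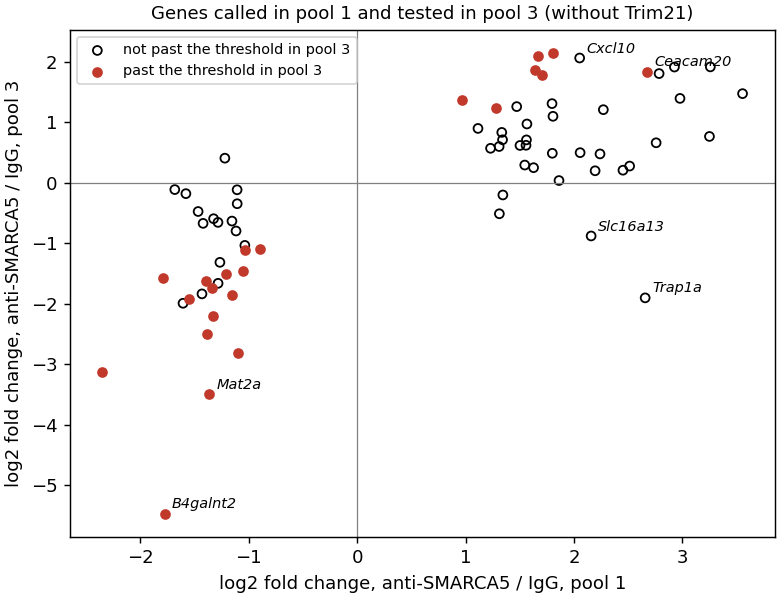
log2 fold change of anti-SMARCA5 over IgG in pool 1 (x axis) and pool 3 (y axis) for the 72 genes called in pool 1 and tested in pool 3, without Trim21. Filled points mark the 22 genes called in both pools, which share their sign, and Trap1a lies in the lower right with opposite signs.

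The difference between the pools was itself tested, as the pool 1 effect minus the pool 3 effect. Of 12659 genes 40 were called (0.316%), 35 with a higher (0.276%) and 5 with a lower (0.0395%) effect in pool 1. Trim21 differed by 13.36 on the log2 scale (edgeR adjusted p = 0.000379). As Trim21 was at 0 in all pool 1 IgG libraries, this size is set by how edgeR treats zeros and is not an estimate. Trap1a differed by 4.54 (edgeR adjusted p = 0.00484), with 2.66 in pool 1 and -1.91 (SE 0.71, adjusted p = 0.0626) in pool 3. The 5 genes with a lower effect, named after their values were seen, were Eef2k (-2.71), Nlrp4f (-2.64), Med27 (-2.27), Hivep1 (-1.97) and Ccrn4l (-1.79). Without wells A10 and H09, 274 genes differed. In pool 3, 17 of 41 tested 2-cell genes and 28 of 76 nucleolar genes were called lower, beside 9.54% of all genes, and their medians were -2.02 and -1.28 against -0.14 and -0.62 in pool 1.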

How the data were processed

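Per the labels' protocols, polyadenylated RNA was read by the RNA part of scNMT-seq with Nextera XT and dual indexes. Per the submitters' processing notes, Trim Galore 0.6.5, cutadapt 2.3, HISAT2 2.1.0 and GRCm38 were used, while strand, multiple matches, read pairs and duplicate removal are not given in the sources used here. The authors deposited whole-number read counts per gene, not normalized. In low cells odd counts outnumber even ones (32105 cells held 1 and 7867 held 2), so counting error may be understated. Lines with the same identifier were summed to 25900 genes.

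Groups came from the titles, and libraries under 100000 counts were left out. No pair of kept libraries in a group agreed within sampling noise (lowest chi-square per degree of freedom 6.61). Counts were fitted with edgeR 4.0.16 in R 4.3.3 (TMM, filterByExpr, robust quasi-likelihood F test) on the libraries compared, with no covariate, after checks on simulated counts. The SE is the log2 fold change divided by the square root of F. DESeq2 1.42.0 and the scalings, filters, terms and left-out libraries named in the closing section were alternatives. Measures of whole libraries were tested by two-sided permutation in scipy. Lists came from general knowledge. Named genes are Trim21, Smarca5, Smarca1, the 12 largest rises and falls past the threshold among genes of average log2 CPM 4 or more, the 5 smallest p-values each way and up to 4 called members of a list. Members, lists and rules were chosen with earlier results of these data known. Overlap of named genes with other genes was read from the table's coordinates.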

Additional observations from a re-analysis of the deposited data

Results flagged for a closer look

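Of 61 measures checked in the 10 IgG libraries, 14 had a library far from the rest by Dixon's test, and 12 of the 14 were well A10. Chance gives about 1 in 20 for independent normal values. These measures share the same libraries, and many are genes named from these data, so the 14 are not separate observations. Well A10 was lowest, as log2(CPM + 1), for Prps1l3 at 5.54, Stmn3 at 0 and Tada2a at 3.34, against medians of 7.96, 6.04 and 5.95, and highest for Smarca1 at 3.72. As list means it was highest for cumulus markers (1.65), blood markers (3.72), sperm markers (1.23), antiviral genes (2.80), the stress response (5.99), developmental transcription factors (2.35) and signalling genes (3.15), and lowest for nucleolar genes (5.21). Gpr3 was lowest in well H09 at 4.02, against a median of 6.79, and Slc16a13 was lowest in well G10 at 0, the shallowest kept library.

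The effect of anti-SMARCA5 against IgG differed between pools 1 and 3 for Trim21, by 13.36, and for Trap1a, by 4.54 on the log2 scale. The size for Trim21 is set by how edgeR treats the 0 counts of the IgG libraries and is not an estimate. The anti-SMARCA5 library of well A06, left out for depth, held 9 Trim21 counts among 9995, or 0.0900% (95% Wilson interval 0.0474% to 0.171%), where every IgG library held 0.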

How the results depend on the processing

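The 90 calls stayed within 1.5 times with DESeq2 size factors (111), without Trim21 and mt- genes (94), with libraries from 1000 counts (82), with the non-robust fit (108) and without A07 and E06 (133). The count was 12 with total-count scaling, which moved the median of all genes by -0.12, 555 without the filter, 5 with libraries of at least 500000 counts, 582 with uninjected libraries in the fit, 551 with plate row, 168 with log2 total counts, 877 with DESeq2, 1177 without IgG A10 and H09 and 7 with mt- share as a term. Leaving out single libraries gave 1 to 745. The share of calls that were higher was 60% and fell to 44.3% and 42.3% with uninjected libraries and plate row. Leaving out A10 and H09 moved the median of all genes by 0.12.

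The 40 differences between pools became 136 without the filter and 274 without A10 and H09. The count of Trim21 slopes was 1 with total counts, 1 without mt- genes and 64 without A07 and E06, and 0 to 40 without single libraries. The difference in detected genes was 401, 693 without Trim21 and mt- genes (permutation p = 0.0117) and 87.7 at 2 or more counts (p = 0.730). That in mt- share was 7.36 percentage points, and 10.9 without A10 and H09, which hold the highest IgG shares, so that value carries no test. The causes were not tested. No paired analysis was possible because both groups carry a single replicate number. The A10 and H09, A07 and E06, and mt- share alternatives, and the left-out libraries of the slope, were chosen after seeing the data. The low depth of IgG well G10 limits what is seen of scarce genes there, and with well G10 left out 5 genes were called.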
